A study of Mus musculus with 20 samples.

Results

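Peaks of N6-methyladenosine (m6A) immunoprecipitation whose summit lies in a short internal coding exon were taken from 10 peak lists of chromatin-associated RNA of mouse embryonic stem cells. A peak was included when its summit lay, on the same strand, in coding sequence of a GENCODE M21 basic transcript (mm10), every exon holding the summit was internal and under 400 bp, and no stop codon of the gene was within 200 bp. This rule took 28521 of 437949 peaks that lie on the 19 autosomes, X, Y or the mitochondrial chromosome M. They merged into 5620 regions in 3351 genes. For comparison, 23138 peaks had their summit in long internal coding exons (400 bp or more), and 37363 lay within 200 bp of a stop codon.

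All 5 groups were C57BL/6 cells kept in medium with LIF and the inhibitors CHIR99021 and PD0325901. Mettl3 control, KO1 and KO2 cells and Ythdc1 control and cKO cells gave 2 immunoprecipitated libraries each, and 10 input samples were not analysed here. The labels give neither how the alleles were made, nor whether KO1 and KO2 are single clones, nor how Ythdc1 was removed in the cKO. Whether a group's 2 libraries stem from different cultures is not stated either, so p-values reflect the spread among libraries, which may be technical. A peak list shows where signal stood above its local background, not how much m6A an RNA carried, and it cannot check the deletions.

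Mettl3 is the catalytic subunit of the nuclear complex that writes m6A on nascent RNA, mostly in the context GGAC. Ythdc1 is the nuclear protein that binds m6A and acts in splicing, export and turnover on chromatin. In mature messenger RNA m6A is known to be dense in long internal exons and around stop codons and sparse in short internal exons, where exon junction complexes deposited at splice junctions block methylation nearby. Chromatin-associated RNA holds many transcripts that are not yet fully spliced.

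Exons of the strongest regions show what kind of sequence the peaks lay in, and are printed below 5′ to 3′ on the sense strand from GENCODE M21 transcripts, in lower case with each GGAC in capitals. The first 3 exons, of at most 300 bp, are among the strongest regions found in all 10 libraries. Ccar1 (chr10:62751743-62751854, minus strand) encodes a transcriptional coactivator of cell cycle genes, and Baz1a (chr12:54934740-54934906, minus strand) a subunit of a nucleosome remodelling complex. Ogdh (chr11:6296952-6297199, plus strand) encodes the first component of the mitochondrial 2-oxoglutarate dehydrogenase complex. The Ccar1 and Baz1a exons held no GGAC and were 48.2% and 54.5% adenine, with 8 and 15 GAA triplets. The Ogdh exon held 4 GGAC.
Ccar1: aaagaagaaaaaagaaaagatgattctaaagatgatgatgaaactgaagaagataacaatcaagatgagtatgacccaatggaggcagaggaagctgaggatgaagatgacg
Baz1a: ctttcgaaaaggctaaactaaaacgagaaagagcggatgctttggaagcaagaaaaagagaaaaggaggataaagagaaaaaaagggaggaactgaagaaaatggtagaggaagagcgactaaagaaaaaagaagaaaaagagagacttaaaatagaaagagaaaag
Ogdh: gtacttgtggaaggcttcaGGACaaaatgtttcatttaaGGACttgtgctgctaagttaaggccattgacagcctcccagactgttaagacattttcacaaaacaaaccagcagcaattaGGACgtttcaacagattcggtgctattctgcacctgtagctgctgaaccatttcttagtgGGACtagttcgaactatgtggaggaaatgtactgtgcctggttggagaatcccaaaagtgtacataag

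The next exons had a peak in both Mettl3 controls and in none of the 4 Mettl3 knockout libraries. They are the 4 strongest such regions with an exon of at most 300 bp, among 8 named in all. Ccser1 lies at chr6:61313654-61313835 (plus strand). Mto1 (chr9:78452764-78453053, plus strand) modifies mitochondrial transfer RNA, Rhbdd3 (chr11:5105433-5105717, plus strand) encodes a rhomboid-domain protein, and Adck1 (chr12:88368335-88368480, plus strand) a mitochondrial protein with a kinase-like domain. The exons of Mto1, Rhbdd3 and Adck1 held 2 GGAC each, between 17.9% and 28.6% adenine, and 4, 3 and 1 GAA. The Ccser1 exon differed from them, with 1 GGAC and 9 GAA in 182 bp and 27.5% adenine.
Ccser1: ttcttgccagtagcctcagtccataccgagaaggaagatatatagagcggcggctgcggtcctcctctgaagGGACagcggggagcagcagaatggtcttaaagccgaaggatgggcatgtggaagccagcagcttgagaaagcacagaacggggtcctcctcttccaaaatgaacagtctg
Mto1: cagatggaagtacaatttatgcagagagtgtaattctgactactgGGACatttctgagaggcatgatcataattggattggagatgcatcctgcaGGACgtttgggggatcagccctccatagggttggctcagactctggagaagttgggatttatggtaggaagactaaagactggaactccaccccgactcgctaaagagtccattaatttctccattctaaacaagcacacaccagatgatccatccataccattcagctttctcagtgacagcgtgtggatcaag
Rhbdd3: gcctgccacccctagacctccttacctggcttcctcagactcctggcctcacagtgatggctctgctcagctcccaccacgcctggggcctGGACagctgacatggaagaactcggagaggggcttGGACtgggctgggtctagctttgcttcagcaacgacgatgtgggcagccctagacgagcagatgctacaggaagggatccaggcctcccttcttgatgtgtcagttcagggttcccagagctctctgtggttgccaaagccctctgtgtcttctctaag
Adck1: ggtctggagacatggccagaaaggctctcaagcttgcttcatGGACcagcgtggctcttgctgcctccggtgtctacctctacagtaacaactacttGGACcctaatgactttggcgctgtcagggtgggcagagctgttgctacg

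The 2 strongest exons with a peak in all 4 Mettl3 knockout libraries and in neither control lay in Dph6 (chr2:114644721-114644914, minus strand), a gene of diphthamide synthesis, and Pdcl3 (chr1:38994915-38995005, plus strand), which encodes a phosducin-like chaperone. The Dph6 exon held no GGAC and 8 GAA, and the Pdcl3 exon 1 GGAC and 4 GAA in 91 bp.
Dph6: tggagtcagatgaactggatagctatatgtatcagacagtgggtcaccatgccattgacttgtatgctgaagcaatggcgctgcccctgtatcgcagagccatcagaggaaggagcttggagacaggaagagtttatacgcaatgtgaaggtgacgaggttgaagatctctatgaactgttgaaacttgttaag
Pdcl3: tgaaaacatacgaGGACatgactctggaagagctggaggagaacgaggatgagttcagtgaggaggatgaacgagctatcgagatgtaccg

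The last exons had a peak in both Ythdc1 controls and in neither cKO library. Stip1 (chr19:7035496-7035705, minus strand) encodes a co-chaperone that links Hsp70 and Hsp90, Fam81a lies at chr9:70093491-70093683 (minus strand), and Trim33 (chr3:103341560-103341719, plus strand) encodes a nuclear ubiquitin ligase of the transforming growth factor beta pathway. They held 1, 3 and 1 GGAC and 7, 11 and 9 GAA.
Stip1: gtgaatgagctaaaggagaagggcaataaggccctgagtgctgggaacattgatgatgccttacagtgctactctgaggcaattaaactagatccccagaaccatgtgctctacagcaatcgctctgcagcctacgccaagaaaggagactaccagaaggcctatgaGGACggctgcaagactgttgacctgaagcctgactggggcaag
Fam81a: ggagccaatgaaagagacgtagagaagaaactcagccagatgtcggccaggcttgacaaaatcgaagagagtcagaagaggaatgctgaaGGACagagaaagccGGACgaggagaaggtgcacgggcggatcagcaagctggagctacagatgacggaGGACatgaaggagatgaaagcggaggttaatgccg
Trim33: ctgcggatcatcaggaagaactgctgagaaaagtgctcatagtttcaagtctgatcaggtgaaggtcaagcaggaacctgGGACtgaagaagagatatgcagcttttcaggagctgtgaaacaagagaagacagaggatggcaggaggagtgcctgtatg

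The number of short exon peaks set the Ythdc1 controls apart from the other 4 groups. The Mettl3 controls held 2327 and 2516 short exon peaks, KO1 2201 and 2380, and KO2 2613 and 2640. The Ythdc1 controls held 4386 and 4230 and the Ythdc1 cKO 2569 and 2659. Both Ythdc1 control libraries lay above all 8 others, while the cKO libraries lay among the Mettl3 groups. As a share of the list, short exon peaks made up a mean of 10.1% for Ythdc1 controls, 5.74% for the cKO and 5.26% for Mettl3 controls, with 5.14% to 6.17% over the 6 Mettl3 libraries. The 5 groups held 0.994 of the variance of this share (exact permutation test over all pairings of the libraries, p = 0.00952, adjusted p = 0.0127 over 12 measures). Without the Ythdc1 controls, the other 4 groups held 0.767 of the variance (exact permutation p = 0.0857). Peaks in long internal exons, from the same lists, numbered 2152 to 2407 in every library.

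**Figure D1:**
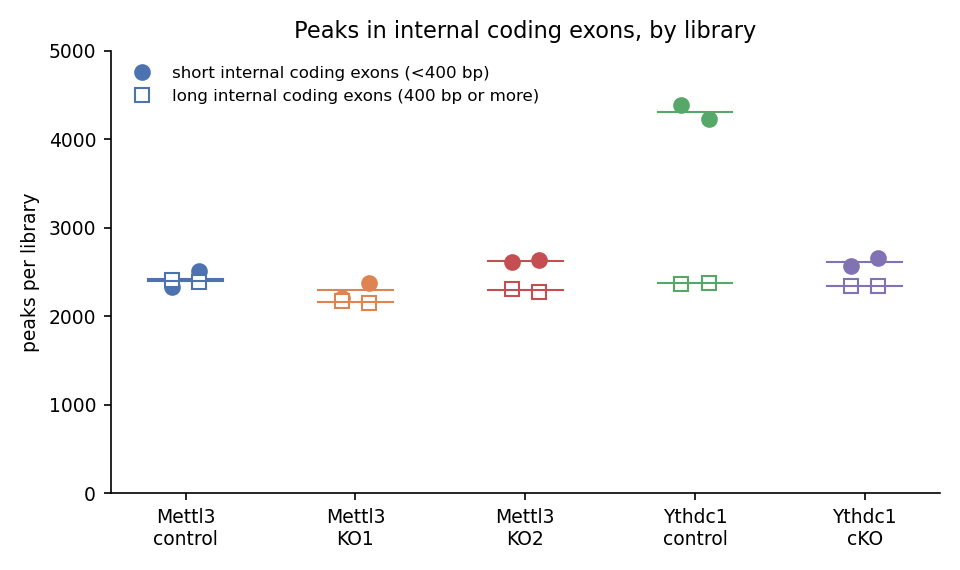
Number of peaks per library (y axis) in short internal coding exons (filled circles) and long internal coding exons (open squares), by group, with a line at the mean of the 2 libraries. The Ythdc1 controls held 4386 and 4230 short exon peaks and the other libraries 2201 to 2659, while long exon peaks stayed between 2152 and 2407.

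The share of the list differed by -4.33 percentage points between Ythdc1 cKO and control (exact permutation test, two-sided, p = 0.333, the smallest that 2 against 2 libraries allow), and by -2.53 points when only exons under 200 bp were counted. Between Mettl3 knockouts and controls it differed by 0.544 percentage points (5.80% against 5.26%, exact permutation test, two-sided, p = 0.267, where 0.0667 is the smallest that 2 against 4 allow). The most common background pile-up on the plus strand, a relative measure of depth solved from called peaks, was 17.77 and 15.69 in the Ythdc1 controls and 14.92 to 20.03 in the other libraries. Reads per library are unknown, and the part of depth in the excess was not tested. In the share of the list the Ythdc1 controls stood above the Mettl3 controls as well as above the cKO. The labels name no batch, and a batch or a line cannot be told apart from the groups here.

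The share of exons that carried a peak summit rose steeply with exon length. This was counted over the 71694 short and 1883 long internal coding exons of the 7753 genes with a peak in all 10 libraries. A gene can enter this set through a peak in the very exon that is counted, which can raise the shares, those of long exons included. The values per kb and their test below rest on the same genes, and the part of this choice was not tested. In the Mettl3 controls 0.454% of exons under 100 bp carried a peak, 1.08% from 100 bp, 4.03% from 150 bp, 8.45% from 200 bp, 18.2% from 250 bp and 44.3% from 300 bp to the limit of 400 bp, each class ending where the next begins. Above the limit it went on to 78.6% from 400 to below 600 bp and 95.4% at 1000 bp or more. Per kb of exon, short exons held 0.226 to 0.258 peaks as group means outside the Ythdc1 controls and 0.404 there, and long exons 1.10 to 1.16. The log2 ratio of short to long was below 0 in 10 of 10 libraries, with a mean of -2.08 (exact sign-flip test, p = 0.00195, the smallest that 10 libraries allow). The lists hold no peak under 150 bp, and a peak was counted only where its summit lay in the exon. The median summit of counted peaks lay 148 to 151 bp before the exon end. A peak placed so on a shorter exon would have its summit outside it and would not be counted there. The rule can thus lower the values of the shortest exons, and its part in the shares and in the ratio was not tested.

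The excess of peaks in the Ythdc1 controls over the cKO was relatively largest in the shortest exons. Exons under 100 bp carried a peak in 0.891% of cases on average over the Ythdc1 control lists and in 0.508% over the cKO lists, a ratio of 1.76. The ratio was 1.70 in the class from 100 bp, 1.69 from 150 bp, 1.61 from 200 bp, 1.45 from 250 bp, 1.29 from 300 bp and 0.994 from 600 bp. In the Mettl3 knockouts the length dependence had another shape. In the class from 300 bp the share was 43.3% and 45.4% for controls, 28.7% and 30.7% in KO1 and 34.6% and 33.2% in KO2. From 150 to below 200 bp it was 4.03% ± 0.307 (SD, n = 2) in controls, 4.40% ± 0.0828 (n = 2) in KO1 and 5.40% ± 0.117 (n = 2) in KO2. The difference from 300 bp was -12.5 percentage points (exact permutation p = 0.0667, the smallest possible, adjusted p = 0.12 over 9 length classes), with no overlap between knockout and control libraries. From 150 bp it was 0.866 points (exact permutation p = 0.133).

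**Figure D2:**
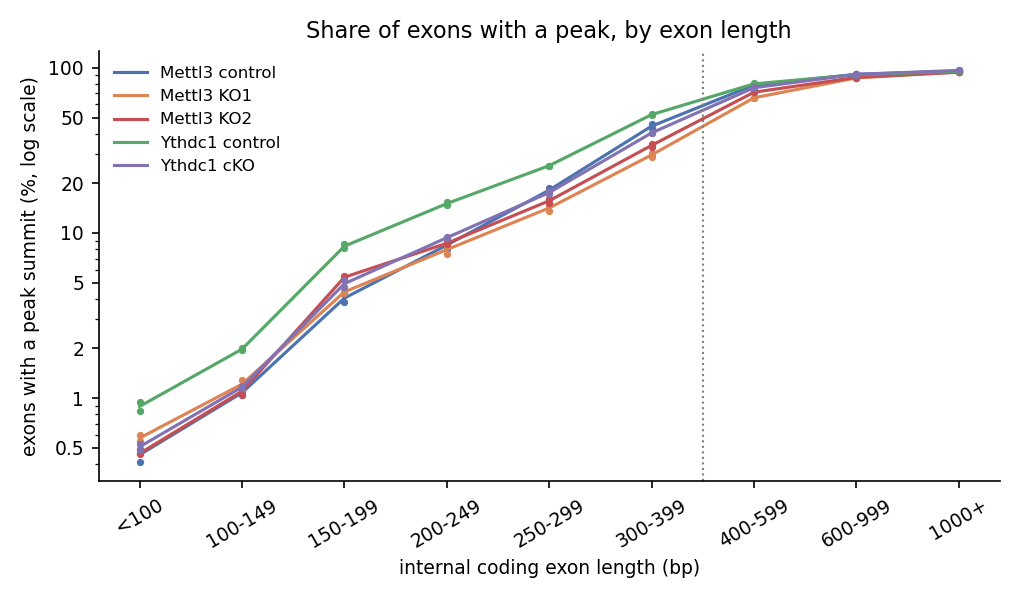
Percentage of internal coding exons with a peak summit (y axis, log scale) by exon length (x axis, bp), in genes with a peak in all 10 libraries; points are libraries, lines group means, and the dotted line is the 400 bp limit. The Ythdc1 controls lie above the other groups at every length below 400 bp, and the Mettl3 knockouts lie below their controls from 250 bp upwards.

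The exons that carried peaks had a lower median length in the Mettl3 knockouts. The median exon length was 209 and 207 bp for Mettl3 controls, 190 and 189 bp for KO1 and 193 and 190 bp in KO2. It was 193 and 194 bp for the Ythdc1 controls and 203 and 199 bp for the cKO. All 4 Mettl3 knockout libraries lay below both controls, by 17.5 bp on average (exact permutation p = 0.0667, adjusted p = 0.133), while both cKO libraries lay above theirs by 7.5 bp (exact permutation p = 0.333). Over the 5 groups the share of variance was 0.968 (exact permutation test, p = 0.00423, adjusted p = 0.00635). Just inside the 400 bp limit, 2106 peaks in exons of 350 to 399 bp had a median width of 331 bp and a median percentile of 44.2 by fold over local background within their lists. Just outside it, 1698 peaks in exons of 400 to 449 bp had 387 bp and 61.2. At the other limit, 35 peaks lay 201 to 250 bp from a stop codon and 6701 peaks outside the class lay 151 to 200 bp from one.

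The summit lay at nearly the same median distance from the exon end in all libraries. It was 149 bp in both libraries of the Mettl3 controls, 148 in KO1, 151 in KO2, 149 for Ythdc1 controls and 150 for the cKO. Of the short exon peaks 26.3% to 32.6% per library had their summit 140 to 159 bp from the exon end. Between 29.9% and 41.7% had it in the first 20 bp of the exon, against 1.36% to 2.49% in the last 20 bp. The distance depended on exon length on both sides. From 150 to below 200 bp the group medians were 15 to 19 bp after the exon start and 149 to 150 bp before its end, and from 300 to below 400 bp they were 145 to 156 bp and 180 to 194.5 bp. In exons under 100 bp the summit lay 13 to 20 bp after the start. In long exons the median distance to the exon end was 335 to 384.5 bp. The peak caller's settings, which bear on where a summit is placed, are not given in the sources used here.

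**Figure D3:**
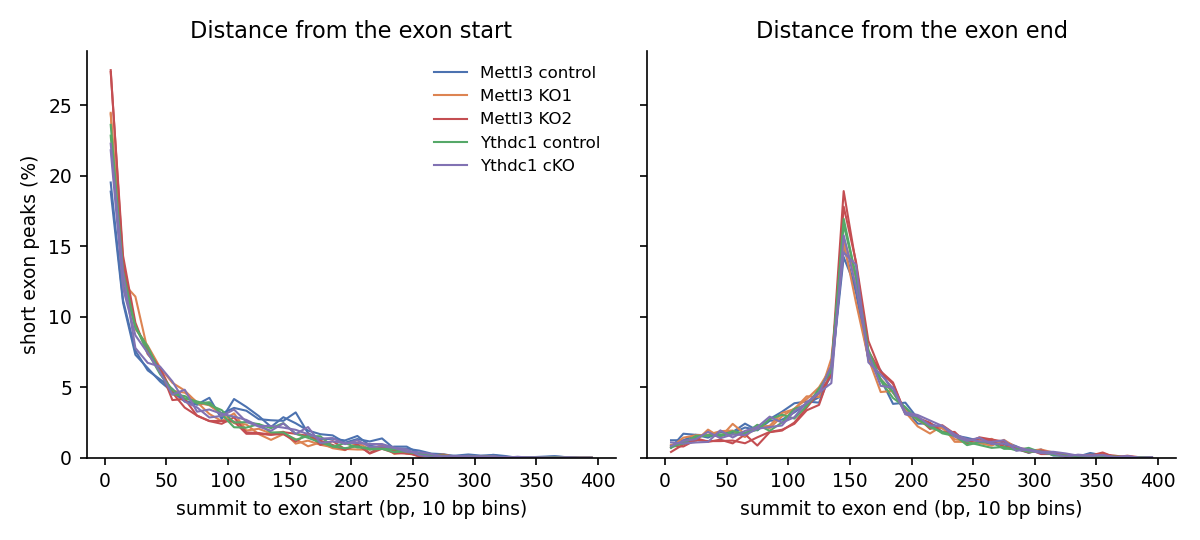
Percentage of short exon peaks (y axis) by the distance of the summit from the exon start (left) and the exon end (right) in 10 bp bins (x axis), 1 line per library, coloured by group. All 10 libraries have their maximum in the bin that starts 140 bp from the exon end and in the first 10 bp of the exon.

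Short exon peaks also reached out of their exon on the upstream side. They had a median width of 210 to 234 bp per library, against 577 to 686.5 bp in long exons. A mean of 52.9% of their length lay in the exon itself, against 89.9% for long exon peaks, and the share was lower in 10 of 10 libraries. The length of the exon caps this share, and no listed peak is under 150 bp wide. The order of the 2 classes was thus largely set by the rule, and the values are a description only. In the Mettl3 controls 84.1% ± 0.528 (SD, n = 2) of short exon peaks extended beyond the 5′ end of the exon and 24.3% ± 0.321 beyond its 3′ end. In the Mettl3 knockouts 91.5% ± 0.378 (SD, n = 4) extended upstream and 19.1% ± 1.87 downstream. The peaks were weak within their lists, with a mean of the library medians at the fold percentile 31.7, against 77.7 for long exons. Their local background was 2.19 times the most common background of the library and strand, against 1.42 times in long exons (exact sign-flip p = 0.00195 for each). This background was 1.95 times in the Mettl3 controls, 2.33 in KO1 and 3.00 in KO2, and 1.90 and 1.79 in the Ythdc1 controls and cKO, so it moved with the Mettl3 groups. Its part in the differences between groups was not tested.

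Fewer short exon summits than long exon summits lay near the m6A motif. GGAC was searched within 50 nt on either side of the summit along the spliced transcript on the sense strand. It was present at 45.0% of short and 52.3% of long exon summits as means over the libraries (difference -7.31 percentage points, lower in 10 of 10 libraries, exact sign-flip p = 0.00195). Within 100 nt the difference was -4.85 points. Near an exon end the window ran on into the neighbouring exon, and intron sequence under a peak was not searched. Between 29.9% and 41.7% of short exon summits per library lay in the first 20 bp of the exon. In long exons the median summit lay 378 to 403 bp after the exon start. The part of this in the difference was not tested. At the midpoints of all 152692 annotated short internal coding exons 38.8% of windows of this length held GGAC. GGACT, which contains GGAC, was present at 13.6% of short and 18.2% of long exon summits, and at 10.9% of the midpoints. GTCC, the same 4 letters read on the other strand, was found at 22.1% of short exon summits in the Mettl3 controls and at 28.4% of the midpoints. The midpoints were matched to the summits neither in place nor in exon length.

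The share of short exon summits with GGAC was lower in all 4 Mettl3 knockout libraries than in the controls. It was present at 46.3% and 47.9% of short exon summits for Mettl3 controls, 40.8% and 41.2% for KO1 and 43.7% and 43.0% in KO2. All 4 knockout libraries lay below both controls (difference -4.95 percentage points, exact permutation p = 0.0667, the smallest possible). At long exons the values were 53.5% and 52.3% (difference -1.26, exact permutation p = 0.2). The difference of the 2 differences was -3.69 points (exact permutation p = 0.133). Short exon summits also lay nearer the exon start in the knockouts, with a mean of the library medians of 30.25 bp against 50.5 bp in controls. Their windows could thus hold more of the upstream exon, and the part of this was not tested. GGACT was at 15.5% in both controls and at 11.1%, 11.5%, 12.6% and 12.8% in the knockouts, again without overlap (exact permutation p = 0.0667), while GTCC was 22.1% and 22.3% (exact permutation p = 0.467). In the Ythdc1 comparison GGAC was 46.6% in controls and 47.1% in the cKO (exact permutation p = 0.667).

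Peaks were next followed region by region. Overlapping peaks of a comparison were merged, and regions present in both controls were called lost if no knockout list held them and kept if all did. Gained regions were on every knockout list and neither control list. Of 1820 short exon regions of both Mettl3 controls, 187 (10.3%, Wilson 95% interval 8.96 to 11.8) were lost, 1066 were kept and 567 were present in some knockout libraries. Over all regions of the genome 13.1% of control regions were lost, and in long exons 119 of 2230 (5.34%). Of 1259 short exon regions in every Mettl3 knockout library 80 (6.35%, interval 5.14 to 7.84) were gained, where all regions gave 4.38% and long exons 1 of 1831. Intervals cover counting error only, and regions of 1 gene share a transcript. Without control replicate 1 or 2 the lost regions numbered 394 and 313, and gained regions 159 without control replicate 2 and 145 and 126 without KO1 replicate 1 or 2, since fewer libraries ease the call.

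Each line was also set against the controls alone. KO1 alone had lost 343 of 1820 regions (18.8%), with 24.2% over all regions, and KO2 alone 317 (17.4%), with 18.4% over all. KO1 gained 185 of 1575 (11.7%), with 12.3% over all regions, and KO2 473 of 1981 (23.9%, interval 22.1 to 25.8), with 14.7% over all. The lines share their controls. In single libraries 27.6% and 25.3% of short exon control regions were absent in KO1 and 22.9% and 23.7% in KO2, against 10.3% to 11.8% of long exon regions. Over all regions 29.8% and 29.7% were absent in KO1 and 23.3% and 24.8% in KO2. Short exon regions thus lay above long exon regions, by 13.7 percentage points ± 1.48 (SD, n = 4 libraries) in 4 of 4 libraries, but below all regions (difference -2.01 points ± 1.75, in 4 of 4; exact sign-flip p = 0.125 for each, the smallest possible). The gap to long exons was 7.63 points when regions were matched by summits within 100 bp, and 9.03 points with exons under 200 bp.

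At a given peak height the order of short and long exons in the Mettl3 comparison depended on the height. Control regions were split into 5 equal height classes by the lower of their 2 control fold percentiles. In the weakest class 31.1% of 699 short exon regions were absent per knockout library, against 46.1% of 162 long exon regions. In class 4 the values were 14.5% and 8.24%, and in the strongest 3.87% and 0.841%. The order of short and long exons thus turned between weak and strong peaks. Over all regions the values were 38.3%, 42.2%, 32.8%, 16.8% and 4.27% from the weakest class to the strongest, and short exon regions, with 31.1%, 28.8%, 25.6%, 14.5% and 3.87%, lay below them in each class.

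**Figure D4:**
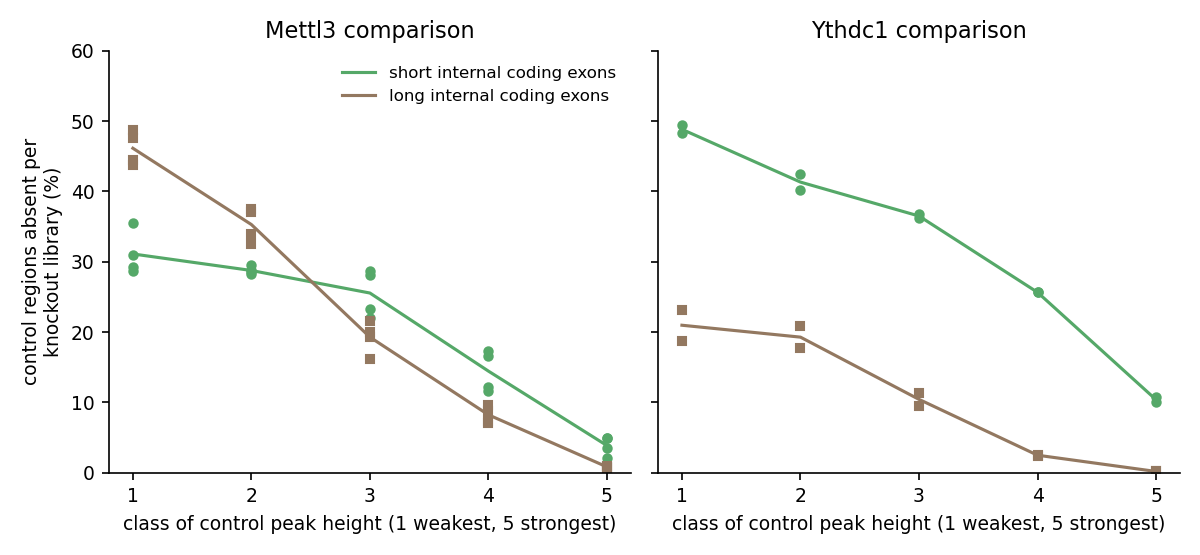
Percentage of control regions absent per knockout library (y axis) by class of control peak height (x axis, 1 weakest to 5 strongest), for short (green) and long (brown) internal coding exons; points are knockout libraries, lines their means. In the Mettl3 comparison the lines cross, with 31.1% against 46.1% in the weakest class and 14.5% against 8.24% in class 4, while in the Ythdc1 comparison short exons lie above long exons in each class.

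Short exon regions absent from the Mettl3 knockouts carried more GGAC and fewer GAA triplets than those that were present. In KO1, 56.0% of absent and 42.9% of present regions held GGAC in replicate 1, and 58.3% and 42.5% in replicate 2. In KO2 the values were 51.6% and 45.0%, and 50.6% and 45.2%. The mean difference was 10.2 percentage points ± 5.03 (SD, n = 4 libraries), positive in 4 of 4 (exact sign-flip p = 0.125, the smallest possible). At long exons it was -0.722 points ± 2.61 (exact sign-flip p = 0.625). GAA triplets, a purine-rich element bound by splicing activators of the SR protein family, numbered 2.56 within 50 nt of the summit in absent and 3.79 in present short exon regions, a difference of -1.23 ± 0.0696 in 4 of 4 libraries (exact sign-flip p = 0.125). At long exons there were 2.11 and 2.50. Both motifs were read at the summit of a region's strongest peak over all libraries of the comparison, knockouts included. GAA was counted after exon sequences of the strongest regions had been seen.

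**Figure D5:**
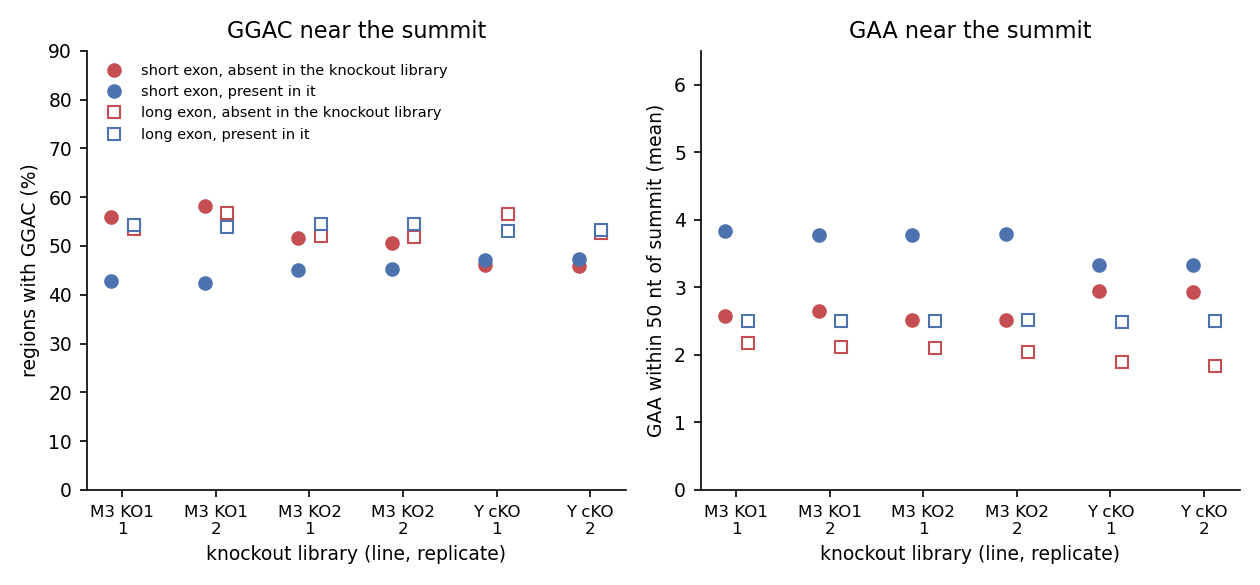
Share of control regions with GGAC near the summit (left) and mean number of GAA triplets within 50 nt of the summit (right) for regions absent from (red) or present in (blue) each knockout library, in short (filled circles) and long (open squares) internal coding exons; M3 is Mettl3 and Y is Ythdc1. In the 4 Mettl3 knockout libraries absent short exon regions hold GGAC in 50.6% to 58.3% and present ones in 42.5% to 45.2%, and the 2 sets differ less in the Ythdc1 cKO.

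The split was wider between regions lost from all 4 libraries and regions kept in all. GGAC was present in 58.8% (interval 51.7 to 65.6) of 187 lost regions and 41.8% (38.9 to 44.8) of 1066 kept regions, with 51.1% of the 567 between. Lost regions were read at a control summit, while the strongest peak of a kept region could come from a control or a knockout library. The median summit lay 101 bp after the exon start in lost and 36 bp in kept regions. The part of both in the contrast was not tested. Windows with 4 or more GAA made up 20.9% (15.6 to 27.2) of lost and 54.6% (51.6 to 57.6) of kept regions. Mean GAA was 2.43 and 4.10, adenine 26.9% and 32.5%, and purines 53.4% and 61.1%. At the midpoints of short exons with no short exon peak in any library, in genes with a peak in all 10 libraries, GAA averaged 2.54 and adenine 27.1% over 65106 exons. These windows were not matched to the lost regions, which were read at summits. Their exons had a median length of 118 bp, against 252 bp for lost regions. The 590 exons with a peak in all 10 libraries averaged 4.15 GAA and 32.9% adenine at their midpoints. Their TTC count, the other strand of GAA, was 0.856 against 1.58.

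The contrast in motif held within classes of height and of exon length. In the weakest class 54.6% of 97 lost and 37.8% of 341 kept regions held GGAC, with 2.48 and 4.11 GAA. In class 4, 64.3% of 14 lost and 39.0% of 210 kept regions held it, with 2.21 and 3.97 GAA, and class 5 had no lost region. In exons from 150 to below 200 bp GGAC was in 58.1% of 31 lost and 38.2% of 335 kept regions, and from 300 bp in 58.5% of 65 and 48.3% of 234. Lost regions lay in longer exons, with a median of 252 bp, against 208 bp for kept and 173.5 bp for gained. Their local background pile-up was also lower, with a median of 21.5 reads against 34.3 in kept regions, and the part of background in the loss was not tested. Gained regions had values near the kept ones, with GGAC in 38.8% (28.8 to 49.7) of 80 and 3.89 GAA per window.

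The 8 strongest lost regions in the Mettl3 comparison all lay in an exon with GGAC, and 6 of 8 had it within 50 nt of the summit, the exceptions being Ccser1 and Dicer1. Of all short exon peaks of the Mettl3 controls, 67.0% and 68.7% lay in an exon with GGAC, and 46.3% and 47.9% had it near the summit. Among exons with a peak in 1 to 9 libraries, 76.1% of those from 250 bp and 81.5% of those from 300 bp held GGAC. The 8 regions are too few to set against these shares. Atm, the kinase that signals DNA double-strand breaks, had folds over background of 6.94 and 6.69 in the controls at chr9:53516239-53516437, in exon 10 of 64. Mto1 had 8.51 and 5.93 and Adck1 7.02 and 5.69. Dicer1, which cuts microRNA precursors, had 7.98 and 5.53 at chr12:104714785-104715007. Ccser1, Rhbdd3, Ccnjl and Lpgat1, an acyltransferase of lipid synthesis, completed the 8, with folds of 5.48 to 7.13. None of these regions was on the list of a knockout library, and folds are the authors' values, which carry no common scale between libraries.

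Of the 6 strongest gained regions 2 held GGAC in the exon, beside 60.7% to 64.4% of all short exon peaks in the Mettl3 knockout libraries. Dph6 showed folds of 8.48 and 10.3 in KO1 and 6.26 and 6.70 in KO2, and Pdcl3 7.58, 8.15, 5.99 and 7.15. Snrpd2, a core protein of spliceosomal small nuclear ribonucleoproteins, had 9.49, 6.14, 5.01 and 6.72 at chr7:19151126-19151362. Zc3h15, Ccdc91 and the nuclear transport receptor Xpo7 were the other 3.

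Among the 10 strongest regions present in all 10 libraries, 6 had GGAC near the summit, beside a mean of 45.0% of all short exon peaks. Zeb1, a zinc finger repressor of epithelial genes, led them with folds of 12.5 and 13.8 for Mettl3 controls, 15.7 and 16.6 for KO1 and 14.5 and 13.2 in KO2. Its folds were 10.6 in both Ythdc1 control libraries and 15.0 and 15.5 for the cKO. Its exon of 201 bp held no GGAC. Ccar1 had folds of 9.80 to 18.6, with its summit on the first base of the exon. Baz1a had 8.84 and 9.54 in the Mettl3 controls and 10.3 to 14.2 in the Mettl3 knockouts. Ints6, a subunit of the Integrator complex, had no GGAC in its exon of 363 bp and folds of 9.26 to 19.3. The remaining 6 were Ogdh, the deubiquitinase Cyld, 4930452B06Rik, Akap13, the SUMO protease Senp6 and the transporter gene Slc35b3, with folds of 7.89 to 18.3. These 10 were on every list, the Mettl3 knockouts included.

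Loss in the Ythdc1 comparison was larger at short exons than over all regions. Of 3234 short exon regions of both Ythdc1 controls 985 (30.5%, interval 28.9 to 32.1) were lost, against 17.9% of all regions and 3.66% of 2159 long exon regions, and 1786 were kept. Of 1977 short exon regions in both cKO libraries 93 (4.70%, interval 3.86 to 5.73) were gained, against 28.0% of all regions. Long exons, with 142 of 2212 (6.42%), and stop codon regions, with 152 of 3265 (4.66%), also had few gains. In the 2 cKO libraries 38.0% and 37.3% of short exon regions and 4.91% and 5.19% of long exon regions were absent, a difference of 32.6 percentage points (exact sign-flip p = 0.5, the smallest possible). Over all regions 23.2% and 22.5% were absent. Short exons lay above long exons and above all regions in each height class, with 41.3% against 19.3% and 33.2% absent in class 2, 25.7% against 2.51% and 11.3% in class 4, and 10.4% against 0.193% and 2.14% in the strongest. Without control replicate 1 or 2 the lost regions numbered 1588 and 1758. Gained regions numbered 150 and 151 without control replicate 1 or 2 and 216 and 208 without cKO replicate 1 or 2.

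The regions lost in the Ythdc1 cKO were mostly not on the lists of the Mettl3 controls. Of all 2783 short exons with a peak in both Ythdc1 controls, 43.5% had one in both Mettl3 controls and 39.3% in neither. Of the 929 among them with a peak in neither cKO library, 130 (14.0%) had one in both Mettl3 controls and 670 (72.1%) in neither. Of 1323 exons with a peak in both Ythdc1 controls and both cKO libraries, 921 (69.6%) had one in both Mettl3 controls. Exons found in both libraries of 1 group and in no other library numbered 441 of 2783 (15.8%) for Ythdc1 controls, against 30 of 1633 in the Mettl3 controls, 38 of 1387 in KO1, 102 of 1723 in KO2 and 62 of 1691 in the cKO. The same shares over long exons or all regions are not given here, so these counts cannot be called particular to short exons.

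Loss in the Ythdc1 comparison was highest in the shortest exons. Of regions in exons under 150 bp 40.4% of 540 were lost, 33.6% of 1065 from 150 bp, 29.7% of 713 from 200 bp, 25.5% of 400 from 250 bp and 18.4% of 516 from 300 bp. In the Mettl3 comparison there was no such order, with 8.84% of 249 under 150 bp, 6.20% of 500 from 150 bp and 14.7% of 443 from 300 bp. The median exon was 186 bp for lost, 210 bp for kept and 182 bp for gained regions in the Ythdc1 comparison. GGAC was in 45.6% (interval 42.5 to 48.7) of lost and 47.1% (44.8 to 49.5) of kept regions, and GAA averaged 2.91 and 3.36. Whether this contrast differs between the Mettl3 and Ythdc1 comparisons was not tested.

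Among the 8 strongest regions lost in the Ythdc1 cKO, 2 had GGAC within 50 nt of the summit and 6 in the exon. Of all short exon peaks of the Ythdc1 controls, 46.2% and 47.1% had it near the summit and 66.9% and 67.2% in the exon. Stip1 had folds of 9.12 and 11.2 in the controls at chr19:7035555-7035759, Fam81a 8.48 and 9.56, and Trim33 9.12 and 8.82 with its summit on the first base of the exon. Lamb1, the laminin beta 1 chain of basement membranes, had 8.37 and 10.5, and Lrp6, a co-receptor for Wnt ligands, 10.2 and 8.62, both also with the summit on the first base. Ankrd17 had 8.33 and 9.84, the sulfatase modifier family member Sumf2 9.54 and 8.51, and Ank3, which encodes ankyrin G, 8.01 and 10.5. The strongest gains were in Ccser1 (folds 12.1 and 12.1 in the cKO), Gpnmb (9.66 and 9.74), the RNA-binding protein gene Fmr1 (7.56 and 9.27), Hnrnpul1, Grid1 and Os9. Ccser1 was thus on both Mettl3 control lists and both cKO lists, but on none of the Mettl3 knockout and Ythdc1 control lists, at chr6:61313535-61313746.

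Counts for the gene lists below stand beside the share of all short exon regions lost, 10.3% in the Mettl3 and 30.5% in the Ythdc1 comparison, and no list was tested. In the Ythdc1 comparison 4 of the 9 writer genes of m6A had 9 short exon regions. Of these, 7 were on both control lists and 2 (28.6%) were lost, near the 30.5% of all short exon regions. Mettl3 itself had a short exon region, at chr14:52300276-52300498 in an exon of 218 bp, with folds of 4.73 and 5.58 for Ythdc1 controls and no peak for the cKO. Zc3h13, which anchors the writer complex in the nucleus, had both lost and kept regions, and Virma, its scaffold, had a kept one. In the Mettl3 comparison 4 writer regions were on both control lists and none was lost, too few to set against 10.3%. Ythdc1 had a kept region with folds of 2.36 to 4.74 in the 6 Mettl3 libraries, in an exon shared with an overlapping gene on the same strand.

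Exon junction complex and decay genes lost 1 of 12 regions (8.33%, beside 10.3% of all short exon regions) in the Mettl3 comparison, in Smg1. In the Ythdc1 comparison they lost 2 of 16 (12.5%, beside 30.5%), in Acin1 and Smg6. Casc3, a core exon junction protein, kept a region on an exon of 65 bp, with folds of 11.3 and 10.3 in the Mettl3 controls and 5.26 to 6.65 in the knockouts. Splicing factor genes lost 0 of 11 regions in the Mettl3 comparison, a number too small to set against 10.3%, and 12 of 31 (38.7%, beside 30.5%) in the Ythdc1 comparison. Snrnp200, the helicase that unwinds spliceosomal small nuclear RNA, had folds of 5.55 and 5.23 and Srsf4 3.55 and 5.21 in the Ythdc1 controls. Srsf11, Srrm2 and Rbm25 were among those kept in the Mettl3 comparison.

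Chromatin regulators lost 2 of 50 regions (4.0%, beside 10.3% of all short exon regions) in the Mettl3 comparison, in the histone demethylase genes Kdm5a and Kdm6b, and 15 of 88 (17.0%, beside 30.5%) in the Ythdc1 comparison. The Kdm5a region was lost in both comparisons, with folds of 4.61 and 4.27 in the Mettl3 controls and 5.37 and 5.63 in the Ythdc1 controls. Chd5 and Chd3, which encode remodelling helicases, kept strong regions in the Mettl3 knockouts, with folds of 9.76 to 15.4 and 7.67 to 13.4. Pluripotency genes had 4 regions in the Mettl3 controls, of which 1, in the nuclear receptor gene Nr5a2, was lost, and lost 0 of 6 in the Ythdc1 comparison. Tbx3, Dppa4 and Sall4 were kept in both. Nuclear exosome and termination genes lost 0 of 9 regions and 3 of 13 (23.1%), and Zfc3h1, of the exosome targeting connection to polyadenylated RNA, was kept in both.

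Large cytoskeletal and matrix genes, chosen for their many short exons, lost 2 of 26 regions (7.69%, beside 10.3% of all short exon regions) in the Mettl3 comparison and 33 of 83 (39.8%, beside 30.5%) in the Ythdc1 comparison. Of genes that mark other cells, Fn1 was the single one of 15 fibroblast genes with short exon regions and lost 2 of 3 in the Ythdc1 comparison, and Lama1 the single one of 13 differentiation genes and lost 2 of 2, both too few to set against that share. Among 6 stem cell identity genes Pou5f1 kept 1 region there, with folds of 2.11 to 2.85. A peak list does not give expression, and the part of RNA abundance in these counts was not tested.

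Most genes had a single short exon region: 2189 of 3351 had 1, 673 had 2 and 489 had 3 or more. Of the 5620 regions 954 were in all 10 libraries and 1399 in 1, counts that were not set against all regions. Ttn, the giant sarcomere protein gene with 322 short internal coding exons, had the most regions, 34, followed by Dst with 22, Dync1h1 with 19, Syne2 with 18 and Cntrl with 17. Ttn held 24 and 29 short exon peaks for Mettl3 controls, 11 and 11 for KO1 and 8 and 4 in KO2. The Ythdc1 controls held 31 and 34 and the cKO 26 and 29. The Mettl3 knockout libraries lay below all other libraries at this gene. Dync1h1, the dynein heavy chain, held 17 peaks on both Ythdc1 control lists, 4 and 5 for the cKO and 0 to 2 over the Mettl3 libraries. Syne2, which links the nuclear envelope to the cytoskeleton, held 16 and 15, then 10 and 11, and 0 to 3. Dst held 23 and 19 in the Ythdc1 controls and 6 to 15 elsewhere, and Cntrl, a centriolar protein gene, 14 and 7 and 5 to 12.

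Regions seen in both libraries of a single group give the remaining named genes. Ccdc171, Slain1 and Ptch1, the Hedgehog receptor, led those of the Mettl3 controls, with folds of 3.98 to 5.58. Psip1, Cep290 and Golgb1 led KO1, and Stk33, another exon of Ccdc91 and Dppa3 led KO2, with folds of 4.86 to 8.21 and 6.60 to 9.42. Trim33, Ankrd17 and Nbas led the Ythdc1 controls, with 7.86 to 9.84, and Gpnmb, Grid1 and App the cKO, with 5.51 to 9.74. Dppa3 is a germline and naive pluripotency gene, with GGAC within 50 nt of the summit along the spliced transcript but not in the exon of 233 bp itself.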

How the data were processed

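Per the labels' protocols, chromatin RNA without ribosomal RNA was fragmented, enriched with an m6A antibody kit and made into stranded libraries. The tools named in the submitters' processing notes are CASAVA, HISAT2 2.1.0, Trimmomatic 0.38 and MACS2, with mm10. The MACS2 command and the use of inputs are not given in the sources used here. Each library has its own list, with both strands. For each peak the authors deposited a score for display, its fold over background (a ratio), −log10 p, −log10 q and the summit. All listed peaks have a width of at least 150 bp and −log10 q of at least 2.0. Each library's 17 to 35 peaks on unplaced contigs were not used.

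Summits were placed on the 81033 GENCODE M21 basic transcripts. Reads per library are unknown. From the deposited fold and p-value of each peak a whole pile-up and its Poisson background were solved, to within 0.002 on the −log10 scale. Relative depth was read from the most frequent background of each strand. A region absent from a list may still hold m6A below the calling threshold.

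Groups followed the sample titles. Per-library values were compared with exact permutation tests (two-sided for differences; 15 splits for 2 against 4, 6 for 2 against 2, all pairings for 5 groups) or exact sign-flip tests over libraries, with Benjamini-Hochberg adjustment over 12 measures or 9 length classes. Regions were peaks overlapping by at least 1 bp on a strand, with the class and summit of their strongest peak by within-list fold percentile. Overlapping versions of an exon were counted once. Named genes are the strongest regions, 1 per gene, by the lowest fold percentile over the libraries with the peak: 10 in all libraries, 8 lost, 6 gained and 5 kept per comparison, up to 3 per group or list and status, and the 5 genes with most regions. The members, lists and measures were chosen with earlier results of these data known. Alternatives covered peak strength, list length, the exon, stop codon and overlap rules, motif windows, single libraries and the replicate number. The scripts were tested on simulated data, with Python 3.11.15, numpy 2.4.6, pandas 2.3.3 and scipy 1.17.1.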

Additional observations from a re-analysis of the deposited data

Results flagged for a closer look

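Of 14 measures of short exon peaks compared between the Mettl3 lines, 1 moved to opposite sides of the controls in both libraries of each line. The median distance from summit to exon end was 1 bp shorter than in the controls in KO1 (-1 bp, at 148 bp) and 2 bp longer in KO2 (2 bp, at 151 bp), where both controls had 149 bp. The lines share their controls, and the difference between them was not tested. With 2 libraries per group, no library was tested as an outlier.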

How the results depend on the processing

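Each result was recomputed with peaks of −log10 q of at least 5, lists of equal length, exons under 200 bp, the looser exon rule, the spliced stop distance and, where they apply, summits within 100 bp and other motif windows. No result changed sign, and 57 of 62 values stayed on their side of the threshold or within 1.5 times the count. The exceptions were the variance between groups without the Ythdc1 controls, an alternative added after seeing the data (0.767), exons under 200 bp (53 lost in the Mettl3 comparison, 570 lost and 58 gained in the Ythdc1 comparison, since fewer exons qualify), and summits within 100 bp (142 gained in the Ythdc1 comparison; the cause was not tested). Differences that kept their sign but moved by over 1.5 times were the gap in absent share between short and long exons in the Mettl3 knockouts (7.63 points with summits within 100 bp and 9.03 with exons under 200 bp, from 13.7), the Ythdc1 difference in the share of the list (-2.53 points with exons under 200 bp, from -4.33), and the GGAC difference between short and long exons (-4.85 points with windows of 100 nt and -4.58 for GGACT, from -7.31). For this gap and for both knockout differences in the share of the list, p could not cross the threshold with so few libraries. Their count as unchanged thus rests on the sign alone. The Mettl3 difference in share was 0.588 points with equal lists and 0.796 points with exons under 200 bp. Its exact permutation p was 0.0667 in both, the smallest possible, from 0.267. Leaving out each library in turn gave 214 to 394 lost and 101 to 159 gained regions in the Mettl3 comparison, and 1209 to 1758 lost and 150 to 216 gained in the Ythdc1 comparison. Fewer libraries make each call easier. Lost regions moved most without a control library (394 and 313 without Mettl3 control replicate 1 and 2, 1588 and 1758 without Ythdc1 control replicate 1 and 2). All 48 of the strongest named regions kept their call with stronger peaks and with equal lists. Both alternatives only take weak peaks away, so regions picked as the strongest could hardly change, and this is no check of their calls.

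Replicate numbers did not pair the libraries: the correlations of replicate 1 minus replicate 2 between groups were -0.0315 to 0.0178 over 5620 regions. With the replicate block the share of short exon peaks differed by 0.544 points in the Mettl3 and -4.33 points in the Ythdc1 comparison (exact sign-flip p = 0.5 each, the smallest possible with 2 numbers). Depth limits every absence: reads per library are unknown, and a weak peak can be missed.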
